A study of Mus musculus with 6 samples.

Results

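*Hal* encodes histidine ammonia-lyase, the enzyme that removes ammonia from histidine and leaves urocanate. It was examined in sorted mammary gland macrophages together with the rest of the histidine breakdown pathway and the enzymes that make and clear histamine. The set held 6 of the 24061 genes in the deposited count table, taken by symbol: *Hal*, *Uroc1*, *Amdhd1*, *Ftcd*, *Hdc* and *Hnmt*. *Hal* was chosen by its level in the Lyve-1+ against the Lyve-1- libraries described here, and the others were added for their place in the pathway. The subset difference of the 6 genes is therefore described here without a test.

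Histidine is broken down in 4 steps. HAL makes urocanate, urocanase (*Uroc1*) hydrates it, imidazolonepropionase (*Amdhd1*) opens its ring, and formimidoyltransferase cyclodeaminase (*Ftcd*) passes the last formimino group to tetrahydrofolate, which leaves glutamate and feeds the folate one-carbon pool. The whole route is known best from the liver, and HAL is also known from the epidermis, where urocanate collects in the stratum corneum. In a separate branch, histidine decarboxylase (*Hdc*) turns histidine into histamine, and histamine N-methyltransferase (*Hnmt*) inactivates histamine inside cells. Mast cells and basophils are the classical histamine stores, and *Hdc* is also known from other myeloid cells.

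RNA-seq counts came from 6 libraries, all made from CD45+CD11b+F4/80+ macrophages of the inguinal (#4) mammary glands of nulliparous female FVB/N mice, with the lymph nodes taken out before digestion. The 3 Lyve-1- libraries and the 3 Lyve-1+ libraries were separated by surface Lyve-1, a receptor for hyaluronan. Glands of 4 mice were combined for each library. The mice were 6 weeks old for the first replicate in both subsets and 10 weeks old for replicates 2 and 3, so a fold or an error below measures the spread between pools and includes age.

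The libraries held between 6478007 and 21406839 counts. The labels were checked against *Lyve1*, which had between 17 and 75 raw counts in the Lyve-1- libraries and between 4735 and 30871 in the Lyve-1+ libraries. All 10 genes of a macrophage marker list, *Lyve1* included, had counts in every library. Without *Lyve1*, which the sort used, the other 9 summed to 4855 to 7480 CPM (TMM-normalized counts relative to library size) in the Lyve-1- subset and 5849 to 7232 CPM in the Lyve-1+ subset, so these ranges overlapped. The libraries differed in their counts on genes of other cell types. Transcripts of 21 hepatocyte markers summed to 1019 CPM or more in 3 libraries (Lyve-1- replicates 1 and 2, and replicate 3 of Lyve-1+, which reached 1738 CPM), and to between 26.0 and 128 CPM in the other 3. Counts on 1090 olfactory receptor genes, a family known mainly from the olfactory epithelium although some members are also known from macrophages, came to 2.64 counts per kb of exonic sequence in Lyve-1- replicate 3. Among the Lyve-1+ libraries they came to 1.00 for replicate 1 and 1.19 for replicate 2, and they were at most 0.0935 in the remaining libraries. These values are given again beside the members that they touch. In bulk libraries, fewer cells of a type and less RNA per cell cannot be told apart.

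*Hal* lies on chromosome 10 of mm10, from 93488768 to 93519304 on the plus strand, with 5549 bp of exonic sequence in 21 blocks in GENCODE M21. *Amdhd1* is its neighbour, from 93523338 to 93540033 on the minus strand, so that these 2 enzymes of the same route lie end to end with 4033 bp between them. No exonic base of the 6 members is shared with another annotated gene, on either strand. Because *Hal* is the member that carries the subset difference, the 250 bases before its annotated start are shown, from RefSeq on GRCm38.p6 (chr10:93488518-93488767, plus strand, written from far to near). Capitals mark the matches to the motifs searched.
Hal promoter: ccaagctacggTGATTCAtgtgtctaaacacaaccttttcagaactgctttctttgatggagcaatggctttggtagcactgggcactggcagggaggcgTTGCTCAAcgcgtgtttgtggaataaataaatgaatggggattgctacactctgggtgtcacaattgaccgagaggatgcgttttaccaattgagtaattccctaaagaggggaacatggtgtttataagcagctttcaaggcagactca

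On both strands, letters of 4 short motifs of factors known from macrophages were searched. These motifs were chosen after the promoter was read, so the matches are a description. The AP-1 core was searched as TGANTCA, with any base allowed at N, and matched once, as TGATTCA. The C/EBP core TTGCNNAA matched once, as TTGCTCAA, and the matches do not overlap. Among 32851 promoter windows of the same length, 6.75% held the AP-1 letters and 9.56% the C/EBP letters. The PU.1 core GAGGAA and the MAF half-site TGCTGA, which 23.3% and 16.1% of windows held, had no match in this one. A match describes the letters and not a bound site.

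*Hal* was the member with the highest CPM in each Lyve-1+ library. The Lyve-1- libraries had 241, 565 and 298 raw *Hal* counts in replicates 1, 2 and 3, and the Lyve-1+ libraries had 9683, 5381 and 2636. After scaling, this was 20.2, 50.2 and 43.4 CPM against 738, 258 and 332 CPM. The subsets did not overlap, and the lowest Lyve-1+ value was still far above the highest Lyve-1- value. The means were 38.0 ± 15.7 CPM (SD, n = 3 pools) and 443 ± 258 CPM (SD, n = 3), a ratio of 11.7, and the fitted log2 fold change was 3.54 (standard error, SE, 0.46). In the Lyve-1+ subset *Hal* ranked 154th, 683rd and 491st of all genes by CPM in replicates 1, 2 and 3. In the Lyve-1- subset it ranked 6169th, 3697th and 3919th. CPM is not scaled by gene length, so these ranks also reflect the lengths of the genes.

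The size of the *Hal* difference varied between the same-numbered libraries. Lyve-1+ exceeded Lyve-1- by a factor of 36.4 for replicate 1, from 6-week-old mice, and by factors of 5.14 and 7.65 for replicates 2 and 3, from 10-week-old mice. The 6-week pair had both the highest Lyve-1+ value and the lowest Lyve-1- value of the 6 libraries. The same held for *Lyve1*, the gene of the sort, with 2352 and 1.43 CPM at 6 weeks. Its factors were 1647, 118 and 80.2 for replicates 1, 2 and 3. In the 10-week libraries alone the *Hal* log2 fold change was 2.64 (SE 0.39).

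**Figure D1:**
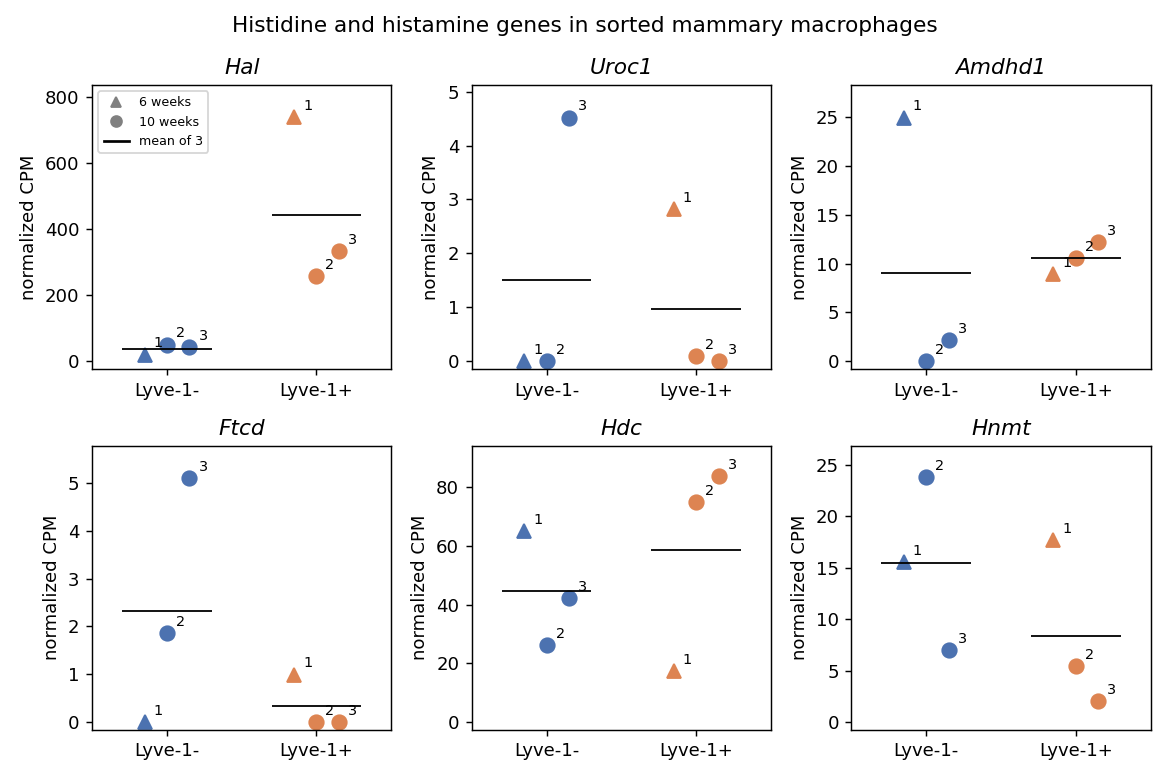
Normalized CPM of the 6 members in each library, with Lyve-1- in blue and Lyve-1+ in orange, triangles for 6 weeks, circles for 10 weeks, the replicate number beside each point and a line at the mean of 3. Only in the *Hal* panel do all 3 Lyve-1+ libraries (258 to 738 CPM) lie above all 3 Lyve-1- libraries (20.2 to 50.2 CPM), and the vertical scales differ between panels.

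Albumin RNA did not follow *Hal*. *Alb*, the main secreted protein of hepatocytes, had 6275, 6180 and 106 raw counts in Lyve-1- replicates 1, 2 and 3 and 809, 18 and 7520 in Lyve-1+ replicates 1, 2 and 3. It was highest in a Lyve-1+ library and next highest in a pair of Lyve-1- libraries, so that each subset had libraries with much *Alb* and libraries with little. Its log2 fold change was -0.11 (SE 2.39, edgeR adjusted p = 1.00). In Lyve-1+ replicate 2, where *Alb* was almost absent at 0.862 CPM, there were 299 *Hal* counts for each *Alb* count. The other Lyve-1+ libraries had 11.97 (replicate 1) and 0.351 (replicate 3), and the Lyve-1- libraries had 0.0384, 0.0914 and 2.81. *Hal* counts were thus fewer than *Alb* counts in the 3 libraries with most *Alb*, and more in the other 3. Without the 2 libraries that had the most olfactory receptor genes with counts, Lyve-1- replicate 3 and Lyve-1+ replicate 1, the *Hal* log2 fold change was 3.05 (SE 0.49).

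**Figure D2:**
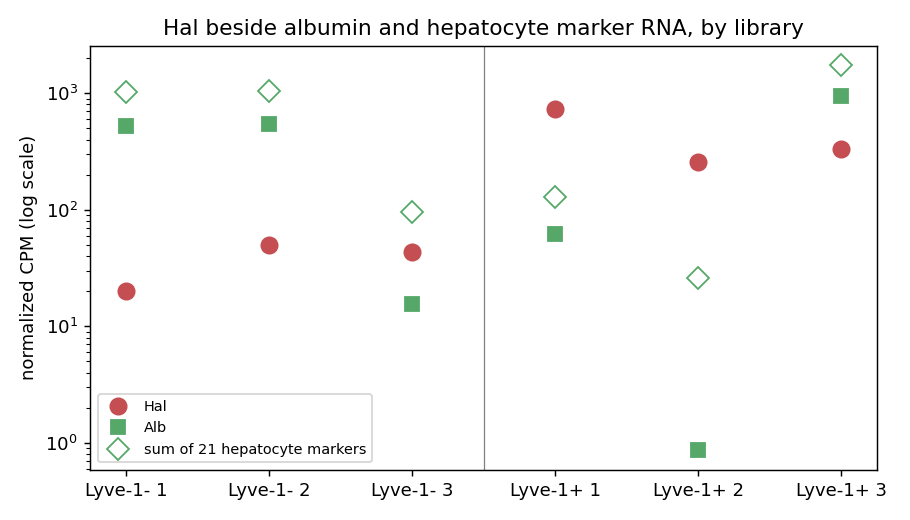
Normalized CPM on a log scale of *Hal* (red circles), *Alb* (green squares) and the sum of 21 hepatocyte markers (open diamonds) in the 6 libraries, with a line between the subsets. *Alb* runs from 0.862 to 947 CPM without regard to the subset, while *Hal* stays at or below 50.2 CPM in the Lyve-1- libraries and at or above 258 CPM in the Lyve-1+ libraries.

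Keratinocyte markers, from the other tissue known for HAL, summed to 6.13, 1.15 and 45.9 CPM in Lyve-1- replicates 1, 2 and 3 and to 13.1, 11.5 and 10.5 CPM in the Lyve-1+ replicates over 9 genes. The highest sum was in Lyve-1- replicate 3, the library with the highest olfactory receptor density (2.64 counts per kb). The sums of Lyve-1- replicates 1 and 2 were below that of every Lyve-1+ library. Of the 6 keratinocyte genes tested, 3 had higher and 3 lower values in Lyve-1+ cells, with 0 called by edgeR, 0 at an unadjusted p under 0.05 and 0 called by DESeq2. Fibroblast markers, like *Hal*, had higher summed levels in every Lyve-1+ library. They summed to between 375 and 590 CPM in the Lyve-1- libraries and between 654 and 1757 CPM in the Lyve-1+ libraries, with the highest sum in Lyve-1+ replicate 3. Of the 10 fibroblast genes, 9 had higher values and 1 a lower value in Lyve-1+ cells, with 0 called by edgeR at an adjusted p under 0.05, 4 at an unadjusted p under 0.05 and 4 called by DESeq2. Those called by DESeq2 were the collagen VI genes *Col6a1* and *Col6a2*, the proteoglycan gene *Lum* and the receptor gene *Pdgfra*, and the subsets did not overlap for any of these 4. They did not overlap for *Fap* either, which was lower in Lyve-1+ cells (17.5 CPM on average in Lyve-1- and 3.79 CPM in Lyve-1+). Over all genes, 0.629% were called by edgeR, 7.69% had an unadjusted p under 0.05, 2.17% were called by DESeq2 and 14.3% had no overlap. The part of keratinocytes and of fibroblasts in the *Hal* difference was not tested.

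The later enzymes of the route were scarce. *Uroc1*, the next step after HAL, had 0, 0 and 31 counts in Lyve-1- replicates 1, 2 and 3 and 37, 2 and 0 counts in the Lyve-1+ replicates. It was seen with more than 3 counts in 2 libraries, 1 of each subset, and it did not pass the filter on low counts. With no count seen, up to 3 counts could have been missed, or between 0.248 and 0.372 CPM in the 3 libraries concerned, for counting error only. Both libraries with *Uroc1* also had many counts on olfactory receptor genes, on 641 of the 1090 genes in the Lyve-1- library and 361 in the Lyve-1+ library. The density is a mean over all 1090 genes, so receptor genes with counts lie above it on average. A count above the density is thus not shown to exceed that background. At the density of those genes, *Uroc1* would be due 9.17 counts in the Lyve-1- library, where it had 31, and 3.48 counts in the Lyve-1+ library, where it had 37. In Lyve-1+ replicate 2 the 2 counts were fewer than the 4.13 due.

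*Ftcd*, the last step, had 0, 21 and 35 counts in Lyve-1- replicates 1, 2 and 3 and 13, 0 and 0 counts in the Lyve-1+ replicates. It passed the filter, but 3 of its 6 libraries were at 0, so no fold is given. At the olfactory receptor density, 8.43 counts would be due where 35 were found (Lyve-1- replicate 3), and 3.20 where 13 were found (Lyve-1+ replicate 1). In Lyve-1- replicate 2 only 0.299 would be due, but its 326 receptor counts fell on just 33 of the 1090 genes, so this mean says little about 1 gene. That library had 549 CPM of *Alb*. The other libraries with much *Alb*, Lyve-1- replicate 1 and Lyve-1+ replicate 3, had no *Ftcd* count.

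**Figure D3:**
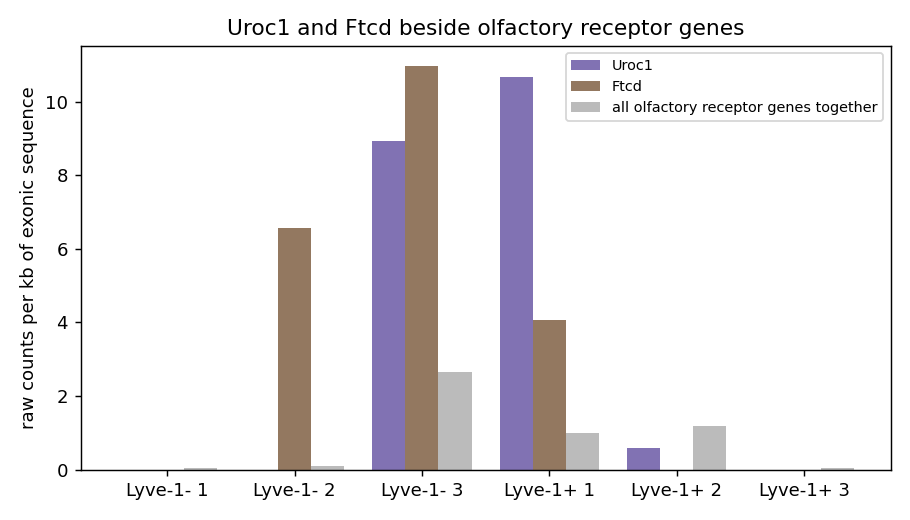
Raw counts per kb of exonic sequence for *Uroc1*, *Ftcd* and all olfactory receptor genes together in the 6 libraries. *Uroc1* bars above 1 count per kb appear at 8.93 in the third Lyve-1- library and at 10.7 in the first Lyve-1+ library, which also have 2.64 and 1.00 receptor counts per kb, whereas *Ftcd* has a further bar in Lyve-1- replicate 2 (6.58), where the receptors are at 0.0935.

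*Amdhd1*, the third step, was counted in 5 libraries, with 297, 0 and 15 counts in Lyve-1- replicates 1, 2 and 3 and 117, 220 and 97 counts in the Lyve-1+ replicates. The Lyve-1+ libraries lay close together, at 8.91, 10.5 and 12.2 CPM, while the Lyve-1- libraries spread from 0 to 25.0 CPM. The highest value and the 2 lowest were all in Lyve-1- libraries. The means were 9.05 ± 13.8 CPM (SD, n = 3) and 10.6 ± 1.65 CPM (SD, n = 3), a log2 fold change of 0.22 (SE 1.47) that is smaller than its error. Leaving out a single Lyve-1- library gave 3.30 (replicate 1 out), -0.36 (replicate 2 out) or -0.24 (replicate 3 out). Like *Hal*, *Amdhd1* did not follow *Alb*. Lyve-1- replicate 2 had no *Amdhd1* count beside 6180 *Alb* counts, and Lyve-1+ replicate 2 had 220 beside 18. In the latter library *Amdhd1* stood at 76.5 times the olfactory receptor density, while the 15 counts of Lyve-1- replicate 3 were 2.35 times it. The 4141 receptor counts of Lyve-1+ replicate 2 fell on 132 of the 1090 genes, so that mean says little about 1 gene.

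The genes around *Hal* were not part of its choice and were tested. *Lta4h*, which encodes leukotriene A4 hydrolase and ends 3892 bp before *Hal* on the same strand, was at 36.0, 31.9 and 52.5 CPM in the Lyve-1- replicates and 102, 88.6 and 47.8 CPM in the Lyve-1+ replicates. It was higher in Lyve-1+ replicates 1 and 2, and replicate 3 fell within the Lyve-1- range. Its log2 fold change was 0.99 (SE 0.41, edgeR adjusted p = 0.536). *Snrpf*, a core protein of the spliceosome, had a log2 fold change of -0.05 (SE 0.95, edgeR adjusted p = 1.00), and *Ccdc38* had at most 22 counts in any library. Within 100 kb of *Hal*, none of the 3 neighbours that were not members had an adjusted p under 0.05 (edgeR quasi-likelihood test). *Lta4h* alone had an unadjusted p under 0.05 in that test. Over all genes these shares were 0.629% and 7.69%, so nothing is read from these counts.

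The histamine branch was present in both subsets. *Hdc*, which makes histamine, had 775, 295 and 290 counts in Lyve-1- replicates 1, 2 and 3 and 227, 1567 and 666 counts in the Lyve-1+ replicates. On the CPM scale these were 65.1, 26.2 and 42.3 against 17.3, 75.1 and 83.9. The subsets overlapped, with the lowest and the highest library both in the Lyve-1+ subset. The means were 44.5 ± 19.6 CPM (SD, n = 3) and 58.8 ± 36.2 CPM (SD, n = 3), and the log2 fold change of 0.40 (SE 0.54) was smaller than its error. It was 0.86 without Lyve-1+ replicate 1 and 1.22 (SE 0.51) in the 10-week libraries alone.

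Mast cell markers varied along with *Hdc* in part. The 11 genes of a mast cell and basophil list summed to 57.3, 80.3 and 107 CPM in Lyve-1- replicates 1, 2 and 3 and 50.6, 268 and 125 CPM in the Lyve-1+ replicates. Lyve-1+ replicate 2 had the highest sum, with 1180 counts of the mast cell protease gene *Cpa3*, and was second highest for *Hdc*. Lyve-1- replicate 1 had the third highest *Hdc* level. It had no count of 6 genes of the list that other libraries held (*Cpa3*, *Tpsb2*, *Tpsab1*, *Ms4a2*, *Fcer1a* and *Prss34*), but it had 376 counts of the receptor gene *Kit*, 78 of the protease gene *Cma1* and, at 18.0 CPM, the highest level of the transcription factor gene *Gata2*. Between the subsets *Kit* ran opposite to *Cpa3*, but within Lyve-1+ both were highest in replicate 2. *Cpa3* was at 0, 4.35 and 9.33 CPM in the Lyve-1- replicates and 13.7, 56.5 and 27.2 CPM in the Lyve-1+ replicates. *Kit* had 376, 598 and 173 counts in the Lyve-1- replicates and 85, 427 and 3 in the Lyve-1+ replicates. On the CPM scale *Kit* was higher in every Lyve-1- library than in any Lyve-1+ library (log2 fold change -1.997, SE 0.96, edgeR adjusted p = 0.678). The basophil protease gene *Mcpt8* had no count in any library. Of the list, 7 genes could be tested and 5 had higher values in Lyve-1+ cells, with 0 past an edgeR adjusted p of 0.05, 2 at an unadjusted p under 0.05 and 0 past 0.05 with DESeq2. Neutrophil markers summed to between 26.7 and 82.7 CPM in the Lyve-1- libraries and between 44.7 and 248 CPM in the Lyve-1+ libraries. Of the 5 neutrophil genes tested, 3 had higher and 2 lower values in Lyve-1+ cells, with 0 called by edgeR and 2 at an unadjusted p under 0.05, the calcium-binding protein genes *S100a8* and *S100a9*. The subsets did not overlap for either, and DESeq2 called *S100a9* (adjusted p = 0.0271). Over all genes, 7.69% had an unadjusted p under 0.05 with edgeR, 2.17% were called by DESeq2 and 14.3% had no overlap. The part of these cells in the *Hdc* level was not tested.

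*Hnmt*, which clears histamine, had 185, 268 and 48 counts in the Lyve-1- replicates and 232, 114 and 16 counts in the Lyve-1+ replicates. Scaled, these were 15.5, 23.8 and 6.997 CPM against 17.7, 5.46 and 2.02 CPM. The highest library was in the Lyve-1- subset and the 2 lowest were in the Lyve-1+ subset, but the ranges overlapped. The means were 15.5 ± 8.41 CPM (SD, n = 3) and 8.38 ± 8.23 CPM (SD, n = 3), with a log2 fold change of -0.88 (SE 1.00). Leaving out Lyve-1+ replicate 1 gave -2.02, leaving out replicate 3 of that subset gave -0.46, and leaving out Lyve-1- replicate 2 gave -0.42.

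Levels of the members can be compared with each other only per length of exonic sequence. In the Lyve-1- subset *Hnmt*, *Hdc* and *Hal* stood at 8.73 ± 4.75, 6.97 ± 3.06 and 6.84 ± 2.83 CPM per kb (SD, n = 3 each), followed by *Amdhd1* at 3.74 ± 5.71. *Ftcd* and *Uroc1* stood below them at 0.728 ± 0.809 and 0.434 ± 0.751. No neighbours in this order differed by more than their spread. In the Lyve-1+ subset *Hal* was first at 79.8 ± 46.6 CPM per kb, with all 3 of its libraries (46.5 to 133) above every library of the other members. *Hdc* followed at 9.20 ± 5.66, *Hnmt* at 4.74 ± 4.65 and *Amdhd1* at 4.36 ± 0.683, which overlapped with each other. *Uroc1* and *Ftcd* were at 0.280 ± 0.461 and 0.103 ± 0.179.

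*Hal* was the 1 member of the 6 whose subsets did not overlap, as in 14.3% of the 13348 genes tested, or 7.82% in this direction. Since this contrast chose *Hal*, nothing is read from the count.

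The age of the mice was not used to choose the members and was tested (10-week minus 6-week libraries, in a model that also held the subset). Of the 5 members tested, 0 differed at an edgeR adjusted p under 0.05 and 0 at an unadjusted p under 0.05, and DESeq2 called 0 of 6. Over all genes the shares were 0.0225%, 3.33% and 0.296%. The log2 fold change was -0.26 for *Hal* (SE 0.51), 0.34 for *Hdc* (SE 0.66), -1.26 for *Hnmt* (SE 1.13) and -2.79 for *Amdhd1* (SE 1.92), each with an edgeR adjusted p of 1.00. With 1 library of each subset at 6 weeks, age cannot be told apart from those pools.

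Whether the subset difference itself changed with age was tested as an interaction. The younger mice gave 1 library of each subset (replicate 1), so age cannot be told apart from that pair of pools. For *Lyve1*, the gene of the sort, the subset difference was smaller at 10 weeks, with an interaction of -4.06 (SE 0.58). Its bearing on the members was not tested. For *Hal* the subset difference was also smaller at 10 weeks, with an interaction of -2.53 (SE 0.60). The adjusted p was 0.477 with edgeR and 0.024 with DESeq2, so the tools differed on the call, and it ran from 0.024 to 0.472 over the alternatives. For *Hdc* the interaction was 3.13 (SE 0.93, edgeR adjusted p = 0.656), since Lyve-1- was above Lyve-1+ for replicate 1 and below it for replicates 2 and 3. Over the 5 members tested, 0 were called with edgeR, as were 0.00749% of all genes, and 2 had an unadjusted p under 0.05, as did 4.59% of all genes. DESeq2 called 1 of the 4 members to which it gave an adjusted p, as it did 0.648% of all genes.

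**Figure D4:**
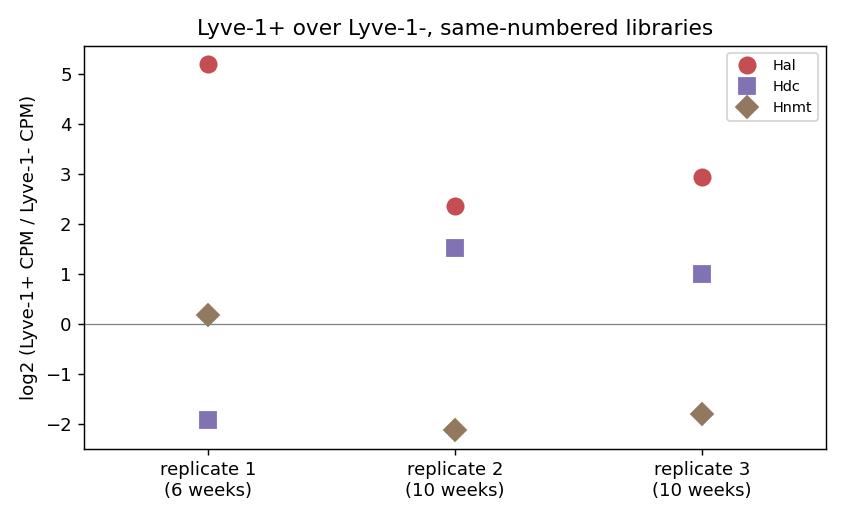
Log2 ratio of Lyve-1+ to Lyve-1- CPM for *Hal*, *Hdc* and *Hnmt* in the libraries that share a replicate number, with replicate 1 at 6 weeks and replicates 2 and 3 at 10 weeks. *Hal* is above 0 at all 3 (ratios of 36.4, 5.14 and 7.65), *Hdc* is below 0 only at 6 weeks and *Hnmt* is above 0 only at 6 weeks.

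The pathways on either side of these enzymes were described with 5 lists that hold no member, covering histidine transport, other uses of histidine, histamine handling and receptors, folate one-carbon metabolism and glutamate handling. Of their 60 genes, 50 could be tested. At an edgeR adjusted p under 0.05, 0 of the 50 were called, 5 had an unadjusted p under 0.05 and DESeq2 called 4. Over all genes the shares were 0.629%, 7.69% and 2.17%. In the tested genes of the lists 26 had higher and 24 lower values in Lyve-1+ cells, and the median log2 fold was 0.01, beside -0.01 over all genes tested. Those 5 included *Cndp2*, *Gpt2* and *Glul*, with higher values in Lyve-1+ cells, and *Carns1*, with a lower value. Each of these 4 genes had separate ranges in the subsets, and DESeq2 called these 4. Of all 50, 5 had separate ranges with Lyve-1+ above and 3 with Lyve-1- above, beside 14.3% of all genes in either direction, so nothing is read from the separate ranges.

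Glutamate is the end product of the route. Of 13 glutamate genes tested, 9 had higher and 4 lower values in Lyve-1+ cells, and the median log2 fold was 0.18. *Glul*, which encodes the enzyme that joins ammonia to glutamate, was at 200, 168 and 188 CPM in the Lyve-1- replicates and 421, 342 and 295 CPM in the Lyve-1+ replicates. All Lyve-1+ libraries were higher, with a log2 fold change of 0.93 (SE 0.26) and adjusted p-values of 0.181 with edgeR and 0.0255 with DESeq2. *Gpt2*, a mitochondrial alanine aminotransferase that works on glutamate, was at 15.6, 6.22 and 6.85 CPM against 50.8, 31.4 and 46.1 CPM. Its log2 fold change was 2.16 (SE 0.59), with adjusted p-values of 0.168 with edgeR and 0.0247 with DESeq2. *Got2*, the mitochondrial aspartate aminotransferase, had the lowest log2 fold change of this list at -0.94 (SE 0.52, edgeR adjusted p = 0.818). *Glud1*, which releases ammonia from glutamate, was at nearly equal levels, 327 and 329 CPM on average.

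Other uses of histidine include protein synthesis and the dipeptide carnosine (beta-alanyl-histidine). *Cndp2*, a cytosolic peptidase that can split carnosine, was at 267, 186 and 161 CPM in the Lyve-1- replicates and 416, 390 and 414 CPM in the Lyve-1+ replicates. Its log2 fold change was 0.99 (SE 0.27), with adjusted p-values of 0.162 with edgeR and 0.0299 with DESeq2. *Carns1*, which encodes the enzyme that makes carnosine, had 225, 17 and 50 counts in the Lyve-1- replicates and 7, 0 and 0 counts in the Lyve-1+ replicates. The adjusted p was 0.559 with edgeR and 0.0452 with DESeq2. *Hars*, the cytosolic histidyl-tRNA synthetase, was at 26.4 and 29.0 CPM on average, a log2 fold change of 0.13 (SE 0.51, edgeR adjusted p = 1.00). Over the 5 genes of this list tested, 2 had higher values and 3 lower, and the median log2 fold was -0.27.

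Of 6 histidine transport genes tested, 1 had a higher and 5 a lower value in Lyve-1+ cells, and the median log2 fold was -0.56. None passed the test, with 0 at an unadjusted p under 0.05 (edgeR) and 0 called by DESeq2. *Slc15a3*, a lysosomal carrier of histidine and short peptides, was at 158 and 108 CPM on average, with a log2 fold change of -0.55 (SE 0.34, edgeR adjusted p = 0.884). *Slc7a8*, an exchanger of neutral amino acids, had the highest value of the list, a log2 fold change of 0.40 (SE 0.30, edgeR adjusted p = 0.993). *Slc38a3*, a glutamine and histidine transporter of the plasma membrane, had the lowest value at -1.96 (SE 1.73, edgeR adjusted p = 1.00), with 628 counts in Lyve-1- replicate 1 and at most 130 in any other library. It was -0.18 without that library and -6.24 without Lyve-1+ replicate 3.

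Of 22 folate genes tested, 11 had higher values in Lyve-1+ cells and 11 lower, and the median log2 fold was -0.11. *Slc25a32*, the mitochondrial folate carrier, had the highest value of the list, with a log2 fold change of 2.61 (SE 1.36, edgeR adjusted p = 0.737) and at most 187 counts in a library. *Gldc*, a subunit of the glycine cleavage system, had the lowest at -2.75 (SE 2.64, edgeR adjusted p = 1.00) and at most 40 counts.

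Of the 9 histamine genes outside the members, 4 could be tested. The histamine receptor gene *Hrh1* was the best counted, with 359, 143 and 86 counts in the Lyve-1- replicates and 765, 312 and 161 in the Lyve-1+ replicates, a log2 fold change of 0.75 (SE 0.65, edgeR adjusted p = 1.00). *Maob*, which oxidises methylated histamine, had 153 counts in Lyve-1+ replicate 3 and at most 41 elsewhere. *Slc18a2*, the vesicle transporter that loads histamine, had a log2 fold change of -0.32 (SE 1.42, edgeR adjusted p = 1.00). *Aoc1*, the extracellular histamine oxidase, had at most 24 counts and *Hrh4* 13 counts in 1 library, Lyve-1- replicate 3, the one with the highest olfactory receptor density.

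**Figure D5:**
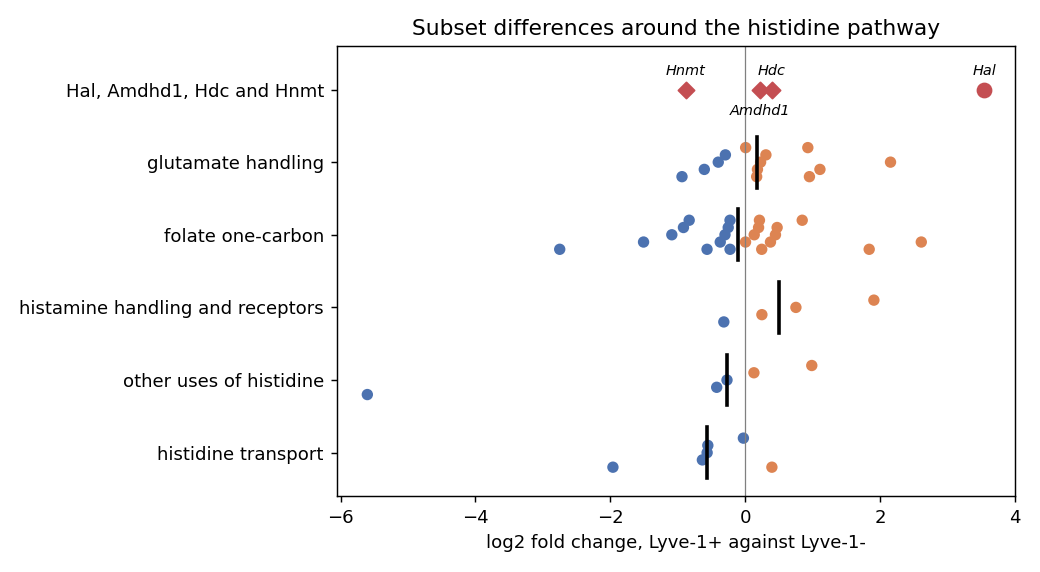
Fitted log2 fold change (Lyve-1+ against Lyve-1-) of each gene tested in the 5 pathway lists, orange above and blue below 0, with a black bar at the list median, and in red the members with a fold. The list medians lie between -0.56 and 0.50, and the highest tested gene of the lists is *Slc25a32* at 2.61. *Hal* lies at 3.54, but it was chosen by this contrast, so nothing is read from its place. Genes that did not pass the filter on low counts are not shown.

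The genes whose levels moved most like *Hal* were found by the root-mean-square difference of log2 CPM, each gene centred on its own mean over the 6 libraries. The nearest of 13347 genes were *Calml4*, *Dennd2a*, *Enpep*, *Ltc4s* and *Dnm1*, with distances of 0.415, 0.480, 0.514, 0.547 and 0.580, where the median gene was 2.02 away. They were chosen for this pattern, so their values are a description. *Enpep*, which encodes the cell-surface aminopeptidase A, was at 4.29, 10.4 and 25.5 CPM in the Lyve-1- replicates and 265, 104 and 111 CPM in the Lyve-1+ replicates. *Ltc4s*, the leukotriene C4 synthase, was at 1.18, 2.04 and 5.25 CPM against 61.8, 12.3 and 14.7 CPM. For both, as for *Calml4*, a calmodulin-like protein, and *Dennd2a*, an exchange factor for Rab proteins, Lyve-1+ replicate 1 was the highest library and Lyve-1- replicate 1 the lowest. *Dnm1*, which encodes dynamin 1, was highest in Lyve-1+ replicate 3 instead, at 297 CPM beside 265 CPM in replicate 1.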

How the data were processed

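Total RNA of sorted cells was made into libraries with a SMARTer Stranded Pico kit. Paired 50-bp reads were mapped by the authors to mm10 with Hisat2 (2.0.2) and counted per gene symbol with featureCounts (1.5.0 in the submitters' processing notes), and the deposited values are raw counts without normalization. The annotation and strand setting are not given in the sources used here. The authors state that they removed genes of fewer than 300 bp and 1 failed 6-week library, which was not analysed here.

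From these counts, genes were kept with filterByExpr (13348 genes) and scaled by TMM, and the subsets were compared with edgeR 4.0.16 (quasi-likelihood F test, robust, R 4.3.3). The model held the subset alone, and p-values were adjusted by Benjamini-Hochberg over all genes tested. Fold changes of the members between subsets are given without p-values. Age and its interaction with the subset were tested in further models. DESeq2 1.42.0 was the alternative test. The depth of 6478007 to 21406839 counts bounds a count of 0 at 3 counts, or 0.140 to 0.463 CPM. Exonic lengths came from GENCODE M21, in which 22749 symbols matched directly and 915 through a RefSeq synonym. The fits were tested on simulated data.

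Genes named were the members, *Alb*, *Lyve1* and hepatocyte markers, in each pathway list the called genes and the largest rise and fall, the protein-coding genes within 100 kb of *Hal* and the 5 genes nearest to it. Other genes were named after their values were seen, as were the motifs after the promoter was read. The members and lists were chosen with earlier results of these data known. The values of 1 pathway gene are not reported here.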

Additional observations from a re-analysis of the deposited data

Results flagged for a closer look

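In 4 of the 5 members tested, replicate 1 of the Lyve-1+ subset moved one way against its Lyve-1- counterpart and replicates 2 and 3 moved the other way, so the 6-week pair and both 10-week pairs had opposite signs. The same pattern was present in 20.2% of all genes tested. *Hdc* was lower in Lyve-1+ at 6 weeks (17.3 against 65.1 CPM) and higher in both 10-week pairs, by factors of 2.86 and 1.98, and the edgeR interaction had an unadjusted p of 0.00405 and an adjusted p of 0.656. *Hnmt* was at 17.7 against 15.5 CPM at 6 weeks and lower in Lyve-1+ in both 10-week pairs, with Lyve-1- higher by factors of 4.36 and 3.47 (edgeR unadjusted p = 0.319, adjusted p = 0.976). *Amdhd1* was lower in Lyve-1+ at 6 weeks (8.91 against 25.0 CPM) and higher in both 10-week pairs, where 1 Lyve-1- library was at 0 (edgeR unadjusted p = 0.127, adjusted p = 0.976). *Ftcd* had 13 counts against 0 at 6 weeks and 0 against 21 and 0 against 35 at 10 weeks (edgeR unadjusted p = 0.106, adjusted p = 0.976). Each subset had 1 library at 6 weeks, so these signs rest on 1 pair of pools.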

How the results depend on the processing

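The *Hal* log2 fold change between subsets kept its direction in all 16 alternatives, from 2.64 (10-week libraries alone) to 3.81, and from 2.97 to 3.81 with 1 library left out. Those of the other members with a fold varied in size with single libraries, and among them only *Amdhd1* changed sign. With 1 library left out they ran from -0.36 to 3.30 (*Amdhd1*), 0.03 to 0.86 (*Hdc*) and -2.02 to -0.42 (*Hnmt*). *Amdhd1* was 3.41 in the 10-week libraries alone, and *Hnmt* was -2.41 without Lyve-1- replicate 3 and Lyve-1+ replicate 1. Of the pathway lists, DESeq2 called 4 genes and the fit with the replicate number as a block called 1, *Cndp2* (edgeR adjusted p = 0.0271), against 0 in the fit reported, and no fit with 1 library left out called any. Same-numbered libraries did not deviate together (correlations of -0.046, -0.0018 and -0.147 across genes). With 3 libraries in each subset, this cannot show whether same-numbered libraries came from the same mice. DESeq2 called 1 member for the age by subset interaction, *Hal*, where edgeR called 0. By rank order, 1 of the 5 genes nearest to *Hal* (*Dennd2a*) placed the libraries exactly as *Hal* did, as did 26 genes in all, while a prior count of 0.5 left all 5 in place. The medians of all lists but histidine transport changed sign under some alternatives. Other signs also changed. In the 10-week libraries alone, *Snrpf* was 0.46, *Ccdc38* -0.37 and *Slc38a3* 0.33. Without both libraries named above, *Snrpf* was 0.36 and *Slc7a8* -0.058, and with the block *Snrpf* was 0.043. With 1 library left out, the range was -0.40 to 0.13 for *Hal* by age (positive without Lyve-1+ replicate 2), -0.44 to 0.24 for *Snrpf*, -0.25 to 3.35 for *Ccdc38*, -0.34 to 9.60 for *Maob* and -1.01 to 0.068 for *Slc18a2*, and *Maob* and *Slc18a2* changed sign without Lyve-1+ replicate 3. Causes were not tested. Vomeronasal in place of olfactory receptors gave 1.47 counts per kb in Lyve-1- replicate 3 and 0.551 and 0.402 in Lyve-1+ replicates 1 and 2.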

Other observations

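Hepatocyte transcripts differed between libraries of the same subset. Beside *Alb*, the apolipoprotein gene *Apoa1* had 395, 521 and 111 counts in Lyve-1- replicates 1, 2 and 3 and 65, 38 and 660 in the Lyve-1+ replicates, and the cytochrome gene *Cyp2e1* had 1439, 586 and 15 against 96, 0 and 300. *Cps1*, the first enzyme of the urea cycle, had 2, 764 and 13 counts against 28, 0 and 361, so it was nearly absent from Lyve-1- replicate 1, where *Alb* had 6275. *Rgn*, which encodes regucalcin, had no count in the Lyve-1- libraries and 2, 79 and 178 counts in the Lyve-1+ replicates. It did not pass the edgeR filter, and DESeq2, which has another filter, called it (adjusted p = 0.00452). Of the 18 hepatocyte markers that edgeR tested, 6 had higher and 12 lower values in Lyve-1+ cells, with 0 called by edgeR at an adjusted p under 0.05, 0 at an unadjusted p under 0.05 and 0 of these 18 by DESeq2.

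Mammary epithelial markers were highest in Lyve-1- replicate 1, at 563 CPM over 10 genes, and ranged from 55.3 to 244 CPM in the other libraries. Of the 9 tested, 1 had a higher and 8 had lower values in Lyve-1+ cells, with 0 called by edgeR, 2 at an unadjusted p under 0.05 and 0 called by DESeq2. Over all genes these shares were 0.629%, 7.69% and 2.17%. Lyve-1- replicate 1 also had the highest *Amdhd1* level and the highest Lyve-1- level of *Hdc*. The part of epithelial cells in these levels was not tested.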
